A study of Mus musculus with 12 samples.

Results

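YN1 and CHIR were compared directly in nephron progenitor cells (NPCs), with 3 YN1 libraries set against 3 CHIR libraries. These 6 of the series' 12 libraries were taken by their titles, which name the compound, the DMEM medium and the replicate. The NPCs came from WT E13.5 mouse kidneys, were isolated by magnetic sorting, passaged 2 to 3 times and then kept for 24 h in DMEM with knockout serum replacement and 200 ng/mL Fgf2, so both groups share the medium and the growth factor. The YN1 group received YN1 at 20 µM, a compound that blocks PFKFB3, an enzyme that speeds up glycolysis. The CHIR group received 3.5 µM CHIR99021, an inhibitor of GSK3 that serves as a WNT agonist. The doses differ, and each compound was used at 1 dose and 1 time, so the comparison is between these 2 treatments and not between matched doses. The other 6 libraries are a DMEM control and a control in NPEM, the expansion medium. DMEM levels are also given where they help to place YN1 and CHIR, but the make-up of that control is not described in the sources used here.

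NPCs are the stem-like cells of the cap mesenchyme, and they keep self-renewing while they express transcription factors such as Six2 and Cited1. Canonical WNT signaling moves them on toward the renal vesicle: when GSK3 is held inactive, beta-catenin accumulates, binds TCF and LEF factors in the nucleus and turns on target genes, among them feedback inhibitors of the pathway itself and the ligand Wnt4. PFKFB3 makes fructose 2,6-bisphosphate, the activator of phosphofructokinase, and its inhibition slows glycolysis.

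The files hold TPM, the share of transcripts after correction for gene length, for 54184 genes, set for each library on its own, so the YN1 and CHIR columns could be joined although they stand in separate tables. The 6 libraries summed to 969477 to 973162 TPM, and 13754 to 14569 genes reached 1 TPM. The depth in reads is unknown, because TPM keep no counts. Mitochondrial genes held 3.64%, 2.52% and 2.00% of TPM in YN1, against 3.52%, 1.35% and 1.95% in CHIR. Ribosomal protein genes held 8.50%, 10.7% and 10.7% in YN1, against 10.04%, 13.7% and 13.03% in CHIR. Both shares overlapped between the groups. Between libraries of the same replicate number, the mitochondrial share was higher and the ribosomal share lower in YN1 each time. The nephron progenitor marker Six2 was present throughout, with 36.04, 168 and 106 TPM in YN1 and 27.2, 125 and 64.3 TPM in CHIR. Not all such markers were: Meox1 stayed under 1 TPM in every CHIR library, and Pax2 in YN1 replicates 1 and 2. Epithelial markers differed between replicates rather than between compounds, with Krt8 at 0.0862, 1.21 and 58.3 TPM in YN1 and at 0.0676, 0.520 and 52.8 TPM in CHIR, so that replicate 3 of both groups stood apart. In bulk RNA, fewer cells of a type and less RNA per cell cannot be told apart.

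Over the 14269 genes tested, YN1 and CHIR were separated far more clearly once the replicate numbers were matched. LogFC here is the mean log2(TPM + 1) of YN1 minus that of CHIR, and a call is an adjusted p under 0.05 (limma, Benjamini-Hochberg over all genes tested). Without a replicate block 1 gene was called, or 0.00701%, and it was higher in YN1, while 2216 genes (15.5%) had an unadjusted p under 0.05; with the block 30.8% did, 22.6% higher and 8.16% lower in YN1. With the replicate block 223 genes were called, or 1.56%. Of these, 158 (1.11% of the genes tested) were higher and 65 (0.456%) were lower in YN1. All 223 moved the same way in the 3 same-numbered pairs, which the blocked fit favors when it calls a gene. Of all genes tested, 41.3% were higher and 15.4% lower in YN1 in all 3 pairs. In 179 of the 223 the 3 YN1 libraries did not overlap the 3 CHIR libraries. Without overlap, 18.3% of all genes were higher and 4.79% lower in YN1. The smallest difference among the 223 was 0.66 on the log2 scale. At the study's thresholds, a LogFC beyond 0.6 with an unadjusted p under 0.05, 1249 genes (8.75%) were higher and 285 (2.00%) lower in YN1 without the block, and 1787 and 516 (3.62%) with it.

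The balance of higher and lower genes depended on the scaling. The median LogFC over all genes tested was 0.16, and it was -0.003 after quantile normalization and -0.008 after median-ratio scaling, so LogFC values below are to be read against 0.16. At the study's thresholds the split of 1249 higher and 285 lower became 595 and 563 after quantile normalization, and 714 and 588 after median-ratio scaling. With the replicate block the calls were 61 higher and 49 lower after quantile normalization and 80 and 78 after median-ratio scaling, against 158 and 65 with the block alone; 107 of the 223 kept their call under the first and 139 under the second. All 223 genes kept the sign of their LogFC under both scalings. This follows largely from their choice, since their smallest difference was 0.66 and the median LogFC before scaling was 0.16. The lower share of ribosomal protein genes in YN1 accompanies this shift, and its part in it was not tested; with those genes and the highest entry, Mir6236, left out and TPM rescaled, the block called 136 genes higher and 66 lower.

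**Figure D1:**
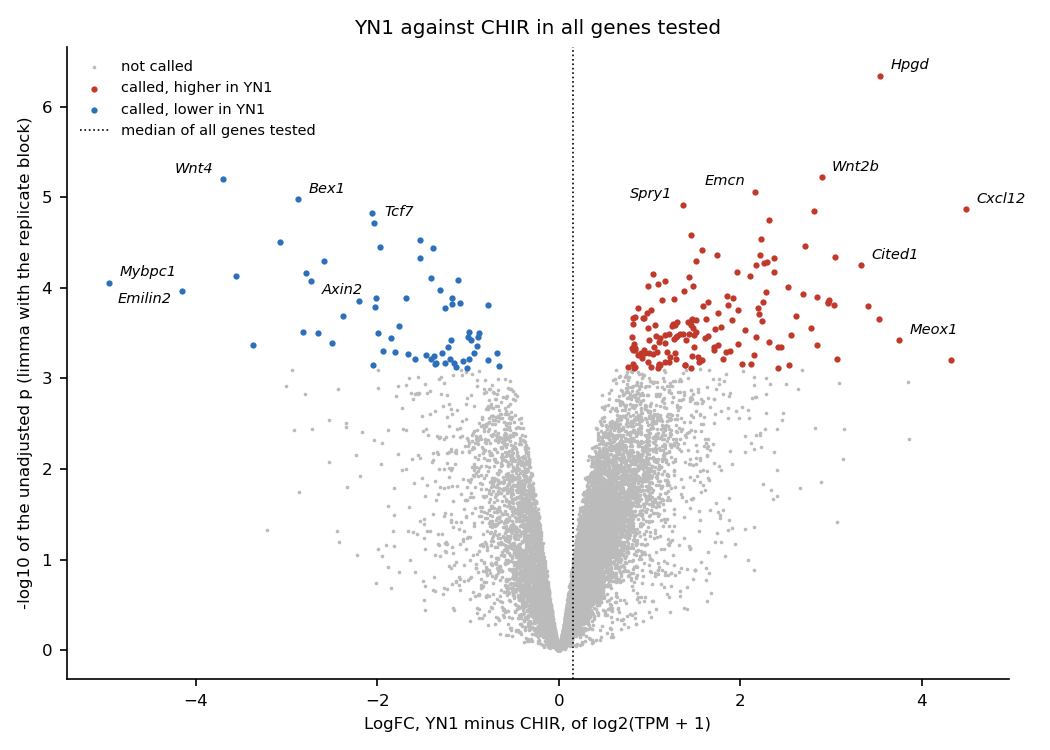
Each point is a gene: the horizontal axis is the LogFC, YN1 minus CHIR, and the vertical axis is -log10 of the unadjusted p from limma with the replicate block. The 158 genes called higher and the 65 called lower in YN1 are colored, and the dotted line marks the median of 0.16 over the 14269 genes tested.

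Cxcl12, a chemokine that attracts cells bearing the receptor Cxcr4, was the gene called without the block. Cxcl12 had 1967, 3399 and 2708 TPM in YN1, against 159, 115 and 84.7 TPM in CHIR. Every YN1 library was more than an order of magnitude above every CHIR library, and the DMEM control, at 1881, 3231 and 2509 TPM, lay with YN1. The LogFC was 4.49 (SE 0.29, adjusted p = 0.0244), and the adjusted p was 0.0236 with the replicate block. Leaving out 1 library gave adjusted p values of 0.0398 to 0.133 with LogFC values of 4.27 to 4.72, and the call held only without CHIR replicate 1. Its receptor ran the other way: Cxcr4 had 0.440, 5.14 and 2.60 TPM in YN1 and 9.81, 72.2 and 13.3 TPM in CHIR. The groups did not overlap, replicate 2 was the highest of both, and the LogFC of -2.82 (SE 0.84, adjusted p = 0.235) was called with the block (adjusted p = 0.0387).

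Feedback and TCF/LEF target genes of WNT had the lowest median of the gene lists. Of the 18 genes on that list 10 were tested, all 10 had a LogFC below 0 against 33.3% of all genes, and their median was -2.03 (-1.80 to -2.32 with any 1 library left out). With the block 5 of the 10 were called, each lower in YN1 where 0.456% of all genes were, 7 had libraries that did not overlap (4.79%), 9 were lower in all 3 pairs (15.4%), and the same number was called with either scaling added. Without the block none of the 10 passed, and 7 had an unadjusted p under 0.05 in the lower direction (3.21% of all genes). Of the 8 members not tested, Sp5, Sp8, Apcdd1, Cdx1, Cdx2 and T stayed under 1 TPM in every library of both groups, and Lgr5 and Rnf43 passed 1 TPM in a single CHIR library each, at 1.30 TPM for Lgr5 and 1.32 TPM for Rnf43.

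Axin2, which encodes a scaffold of the beta-catenin destruction complex and is a standard readout of the pathway, had 0.834, 2.81 and 5.76 TPM in YN1, against 17.5, 19.7 and 34.9 TPM in CHIR. The highest YN1 library was well below the lowest CHIR library, and DMEM had 1.14, 2.82 and 4.12 TPM. Its LogFC was -2.73 (SE 0.51, adjusted p = 0.163, and 0.0293 with the replicate block). Nkd1, an inhibitor that acts on Dishevelled, had 17.6, 18.5 and 49.9 TPM in YN1 and 111, 72.2 and 151 TPM in CHIR, again without overlap, with a LogFC of -2.02 (SE 0.45, adjusted p = 0.185, and 0.0315 with the block). Tnfrsf19, a receptor of the TNF family, was barely detected in YN1, at 0.588, 0.240 and 1.71 TPM, against 8.69, 29.0 and 19.5 TPM in CHIR. Its LogFC was -3.37 (SE 0.49, adjusted p = 0.119, and 0.0416 with the block).

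The 2 DNA-binding partners of beta-catenin on the list followed the same order. Tcf7 had 7.01, 8.56 and 12.4 TPM in YN1 and 34.5, 40.2 and 47.7 TPM in CHIR. Within each group its libraries were close together, and the LogFC was -2.04 (SE 0.25, adjusted p = 0.0672, and 0.0247 with the block). Lef1 had 6.32, 1.28 and 3.28 TPM in YN1 and 38.3, 6.95 and 31.5 TPM in CHIR. Replicate 2 was the lowest of both groups, so the spread within a group was wide and the groups barely failed to overlap, while the pairs differed evenly (LogFC -2.38, SE 0.70, adjusted p = 0.233, and 0.0349 with the block). Notum, a secreted enzyme that inactivates WNT ligands, was nearly silent in YN1, at 0.0407, 0.0899 and 0.172 TPM, against 2.11, 3.83 and 16.1 TPM in CHIR. That difference (LogFC -2.53, SE 0.62) did not pass, with an adjusted p of 0.205 and of 0.0634 with the block.

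Among the ligands the 2 called with the block differed in opposite directions, 1 higher (1.11% of all genes) and 1 lower (0.456%) in YN1. Wnt4, which NPCs make as they turn into the renal vesicle, had 5.305, 1.36 and 18.0 TPM in YN1, against 85.8, 39.1 and 176 TPM in CHIR. No YN1 library reached a CHIR library, and DMEM had 3.99, 1.60 and 13.02 TPM. The LogFC was -3.70, with an SE of 0.84 without the block and 0.20 with it (adjusted p = 0.190, and 0.0236 with the block). Wnt2b had 15.8, 35.8 and 33.8 TPM in YN1, against 1.203, 3.97 and 3.80 TPM in CHIR, and DMEM had 11.4, 36.3 and 25.5 TPM. The groups were far apart in the direction opposite to Wnt4, with a LogFC of 2.89 (SE 0.45, adjusted p = 0.121, and 0.0236 with the block). Wnt5b had 7.23, 17.6 and 17.2 TPM in YN1 and 18.3, 41.7 and 17.7 TPM in CHIR. It was lower in YN1 without overlap, by a narrow margin, and was not called (LogFC -0.82, SE 0.45, adjusted p = 0.422, and 0.127 with the block). Of the 19 ligands listed 6 were tested, and 9 stayed under 1 TPM in all 6 libraries.

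Of the receptors and transducers 30 were tested. Of these, 2 were called with the block, both higher in YN1 (1.11% of all genes), and the median LogFC was 0.21 beside 0.16 for all genes. Lrp6, the co-receptor of canonical WNT, had 63.5, 73.0 and 60.5 TPM in YN1 and 31.9, 38.9 and 28.4 TPM in CHIR. Fzd4, a Frizzled receptor, had 33.9, 88.8 and 44.4 TPM in YN1 and 13.8, 30.3 and 13.3 TPM in CHIR. Neither gene overlapped between groups, and the LogFC was 0.98 for Lrp6 (SE 0.17, adjusted p = 0.140, and 0.0342 with the block) and 1.47 for Fzd4 (SE 0.44, adjusted p = 0.237, and 0.0304 with the block); with either scaling added to the block Lrp6 was not called (adjusted p = 0.0535 and 0.0505). Ctnnb1, which encodes beta-catenin, had 806, 954 and 854 TPM in YN1 and 679, 722 and 712 TPM in CHIR, a LogFC of 0.30 with a 95% interval of -0.02 to 0.62 without the block and 0.10 to 0.51 with it, and no call in either fit. Fzd1, another Frizzled receptor, lay the other way without overlap, at 53.02, 63.7 and 66.5 TPM in YN1 and 106, 169 and 80.5 TPM in CHIR, and was not called (LogFC -0.88, SE 0.27, adjusted p = 0.239, and 0.0843 with the block). Gsk3b, which encodes one of the kinases that CHIR inhibits, had a LogFC of 0.25 with an interval of -0.15 to 0.65 without the block and -0.06 to 0.56 with it.

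The secreted antagonists split. Sfrp4, a Frizzled-related protein that binds WNT ligands, had 19.2, 5.26 and 13.05 TPM in YN1 and 4.12, 0.650 and 0.382 TPM in CHIR, and was called with the block (LogFC 2.42, SE 0.63, adjusted p = 0.218, and 0.0491 with the block) but not with the block and either scaling (adjusted p = 0.0685 and 0.0556). Dkk1, which blocks the Lrp co-receptors, had 6.32, 18.9 and 1.80 TPM in YN1 and 0.800, 0.687 and 0.316 TPM in CHIR, without overlap and without a call (LogFC 2.23, SE 0.68, adjusted p = 0.237, and 0.0721 with the block). Sfrp2 ran opposite, at 20.7, 17.2 and 20.9 TPM in YN1 and 32.8, 32.5 and 52.6 TPM in CHIR (LogFC -0.94, SE 0.23, adjusted p = 0.205, and 0.0585 with the block). The list as a whole, with 10 tested, had a median LogFC of 0.43, which was -0.003 without YN1 replicate 1.

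The promoters of the named WNT genes were searched for the letters CTTTGAT and CTTTGAA, the core that TCF and LEF factors prefer, on both strands of the 300 bases from 250 before to 50 after a gene's start (RefSeq, GRCm38.p6). Of 21 named genes on the WNT lists 17 have an entry in the table used, and 5 of these 17 genes (29.4%) held either word in at least 1 promoter, against 9.88% of the 27025 genes in the table. Counted by promoter, since the named genes have more starts each, the shares were 18.5% of 27 and 8.65% of 32851. These genes were Dkk1, Sp5, Tnfrsf19, Wnt11 and Wnt5b, of which Tnfrsf19 was called. Axin2, Lef1, Nkd1, Tcf7, Wnt4 and Wnt2b held neither word in this window, which says only that these letters are not within these 300 bases. The promoters of Tnfrsf19 (one of its 2 starts) and Dkk1, which differed in opposite directions, and of Cxcl12, chosen after its values were seen, each hold 1 match, shown in capitals. In Tnfrsf19 and Cxcl12 the printed strand reads ATCAAAG, the reverse complement of CTTTGAT. The intervals are chr14:61037938-61038237 on the minus strand for Tnfrsf19, chr19:30549447-30549746 on the minus strand for Dkk1 and chr6:117168285-117168584 on the plus strand for Cxcl12.
Tnfrsf19: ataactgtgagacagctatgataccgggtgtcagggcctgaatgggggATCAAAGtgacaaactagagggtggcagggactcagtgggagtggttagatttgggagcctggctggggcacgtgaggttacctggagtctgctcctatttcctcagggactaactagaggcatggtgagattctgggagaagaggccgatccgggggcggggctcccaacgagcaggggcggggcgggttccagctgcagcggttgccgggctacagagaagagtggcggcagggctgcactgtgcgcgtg
Dkk1: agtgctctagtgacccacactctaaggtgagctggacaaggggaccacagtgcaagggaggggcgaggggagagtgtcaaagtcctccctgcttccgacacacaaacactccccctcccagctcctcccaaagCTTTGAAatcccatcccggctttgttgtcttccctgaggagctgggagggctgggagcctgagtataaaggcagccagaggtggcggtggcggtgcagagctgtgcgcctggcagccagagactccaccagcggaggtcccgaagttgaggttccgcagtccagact
Cxcl12: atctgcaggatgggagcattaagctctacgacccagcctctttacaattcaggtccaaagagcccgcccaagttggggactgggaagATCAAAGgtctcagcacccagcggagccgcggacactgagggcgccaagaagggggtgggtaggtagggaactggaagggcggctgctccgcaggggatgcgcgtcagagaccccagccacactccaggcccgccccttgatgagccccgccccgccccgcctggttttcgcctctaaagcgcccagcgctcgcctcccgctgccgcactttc

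Of the genes of the undifferentiated NPC, Cited1 and Meox1 were called higher in YN1, and the other members were not called in either fit. All 18 members were tested. Of these 2 were called with the block, both higher in YN1 (1.11% of all genes), and 12 of 18 lay above the median of all genes. The list's median LogFC was 0.43 with a range of -0.03 to 0.68 when 1 library was left out. Cited1, a transcriptional cofactor of the self-renewing NPC, had 13.6, 83.2 and 29.0 TPM in YN1, against 1.39, 6.13 and 1.11 TPM in CHIR. Meox1, a homeobox gene of the same compartment, had 15.7, 58.0 and 6.16 TPM in YN1, and 0.254, 0.942 and 0.192 TPM in CHIR. Replicate 2 was the highest of both groups for both genes, and the groups were separate. The LogFC was 3.33 for Cited1 (SE 0.73, adjusted p = 0.185, and 0.0269 with the block) and 3.75 for Meox1 (SE 0.73, adjusted p = 0.167, and 0.0389 with the block). With the block and quantile normalization Meox1 was not called (adjusted p = 0.0623).

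Six2, the defining factor of the NPC, overlapped between the groups, with a LogFC of 0.51 (SE 0.70, 95% interval -1.17 to 2.19) and an adjusted p of 0.755. It was higher in YN1 in all 3 pairs, and with the block the interval was 0.23 to 0.79 and the adjusted p 0.0705. Eya1, the partner of Six2, had 121, 197 and 147 TPM in YN1 and 52.4, 111 and 29.1 TPM in CHIR, a LogFC of 1.44 (SE 0.46) that did not pass (adjusted p = 0.252, and 0.0671 with the block). Pax2, a paired-box factor on the same list, lay the other way, at 0.589, 0.660 and 3.05 TPM in YN1 and 1.75, 10.1 and 6.49 TPM in CHIR. It was lower in YN1 in all 3 pairs without a call (LogFC -1.47, SE 0.62, adjusted p = 0.320, and 0.107 with the block). For Gdnf, the ligand that draws in the ureteric bud, the 2 groups were close, at 8.84, 37.8 and 13.005 TPM in YN1 and 8.74, 50.3 and 11.98 TPM in CHIR. Its receptor subunit Gfra1 had 20.9, 75.9 and 24.1 TPM in YN1 and 3.30, 11.9 and 1.08 TPM in CHIR. Gfra1 was separate between groups and called with the block (LogFC 2.84, SE 0.76, adjusted p = 0.218, and 0.0314 with the block). Of the 26 renal vesicle and nephron differentiation genes 12 were tested, and Wnt4 alone was called, lower in YN1 with the block (0.456% of all genes). Lhx1, an early marker of the renal vesicle, stayed under 1 TPM in all 6 libraries. Pax8, another early nephron factor, had a LogFC of -0.18 with a 95% interval of -2.30 to 1.94 without the block and -0.73 to 0.38 with it.

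**Figure D2:**
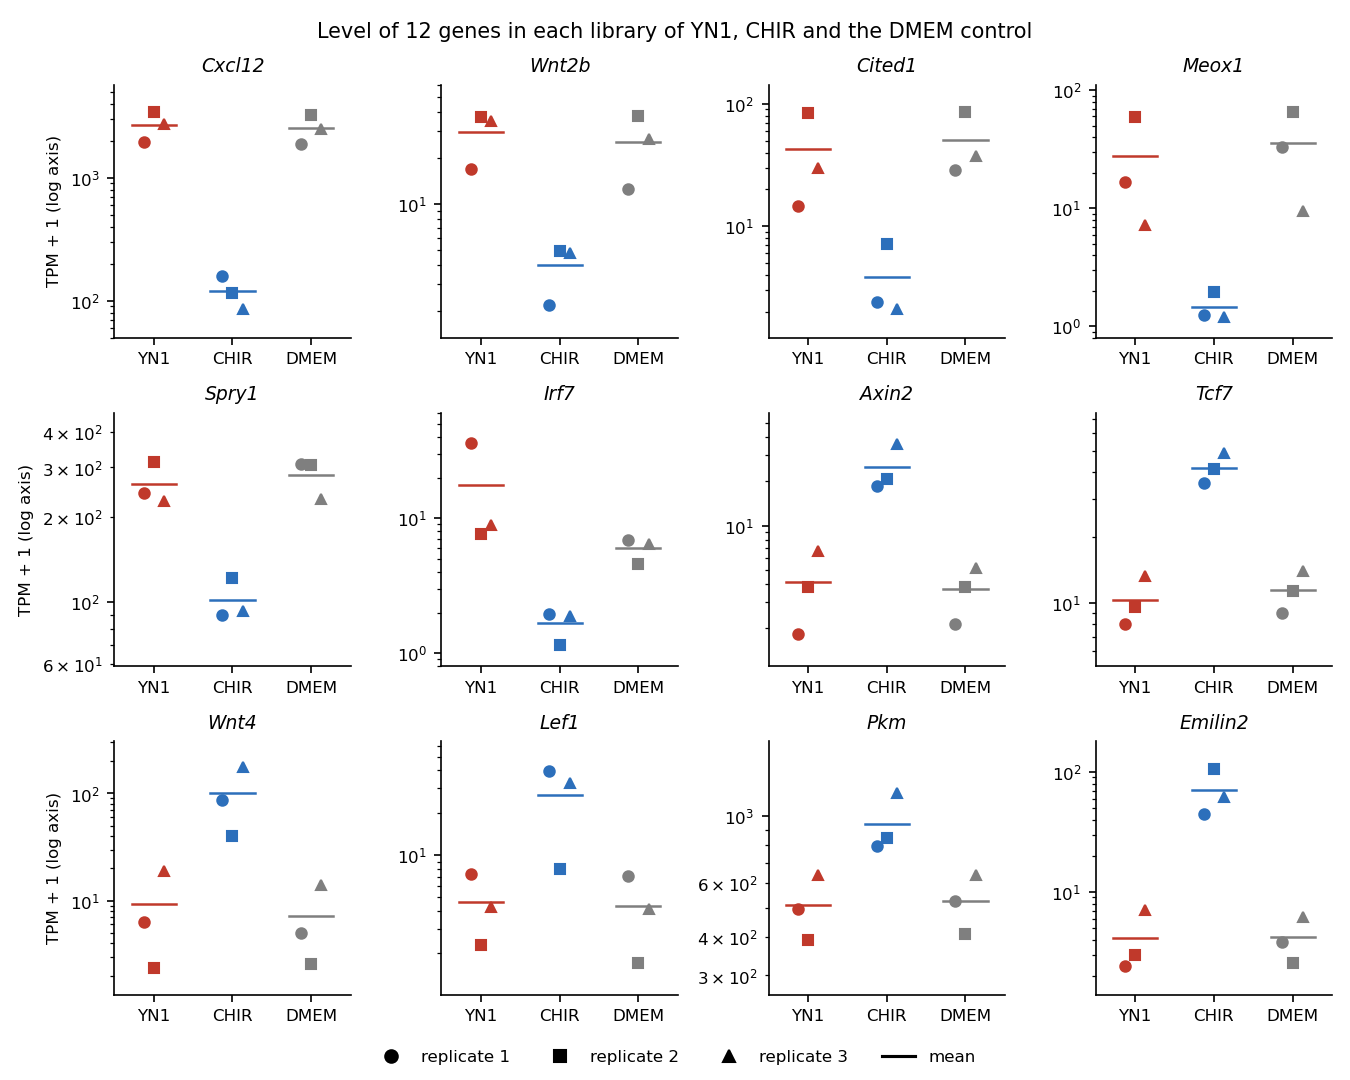
TPM + 1 on a log axis in each library of YN1, CHIR and the DMEM control for 12 genes, with the replicate number given by the marker and the mean by a line. Cxcl12, Wnt2b, Cited1, Meox1, Spry1 and Irf7 are higher and Axin2, Tcf7, Wnt4, Lef1, Pkm and Emilin2 lower in YN1 than in CHIR without overlap. In mean log2(TPM + 1) DMEM is nearer to YN1 than to CHIR in all of them, but for Irf7 it lies between the groups.

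Other genes with large differences higher in YN1 include enzymes, transporters and signaling regulators. Hpgd, which degrades prostaglandins, had the smallest p of the fit with the block: it had 48.9, 172 and 103 TPM in YN1, against 3.20, 14.2 and 7.94 TPM in CHIR. The 2 groups differed by a nearly constant factor within each pair, which gave a LogFC of 3.54 with an SE of 0.11 with the block and 0.59 without it (adjusted p = 0.00652 with the block, and 0.140 without). Slc26a7, an anion exchanger, had 6.79, 53.5 and 19.1 TPM in YN1 and 0.418, 1.77 and 0.428 TPM in CHIR (LogFC 3.52, SE 0.70, adjusted p = 0.168, and 0.0349 with the block). Tcf24, a basic helix-loop-helix factor, had 12.8, 143 and 42.5 TPM in YN1 and 1.42, 8.55 and 5.87 TPM in CHIR, where replicate 2 was again the highest of both groups (LogFC 3.03, SE 0.90, adjusted p = 0.235, and 0.0314 with the block). Atp1b1, the beta subunit of the sodium pump, had 39.6, 33.3 and 56.8 TPM in YN1 and 3.44, 4.60 and 8.26 TPM in CHIR (LogFC 2.82, SE 0.34, adjusted p = 0.0672, and 0.0236 with the block).

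Several genes were so even within each group that they came close to a call without matching replicates. Arrdc3, an arrestin-domain protein that directs receptors to degradation, had 46.9, 39.5 and 43.7 TPM in YN1 and 14.9, 13.502 and 13.3 TPM in CHIR. Rasl11a, a small GTPase-like protein, had 40.9, 44.0 and 39.2 TPM in YN1 and 13.47, 11.5 and 10.1 TPM in CHIR. Both were clearly separate, with a LogFC of 1.57 (SE 0.15) for Arrdc3 and 1.75 (SE 0.17) for Rasl11a and an adjusted p of 0.0580 for each (0.0269 with the block). Trib2, a pseudokinase, Adamts18, a secreted metalloprotease, and Shisa3, which holds back Frizzled and Fgf receptors, were likewise higher, with LogFC values of 1.43, 2.69 and 2.78, an adjusted p of 0.0672 each, and 0.0289, 0.0314 and 0.0371 with the block. Shisa3 was not called once either scaling was added to the block (adjusted p = 0.0623 and 0.0506), nor Adamts18 with quantile normalization (0.0518).

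Mybpc1, Emilin2 and Lepr had large differences in the lower direction. Mybpc1, a myosin-binding protein known from slow muscle, had 0.110, 0 and 0.320 TPM in YN1, against 16.5, 73.7 and 32.2 TPM in CHIR. Emilin2, a glycoprotein of the extracellular matrix, had 1.41, 1.99 and 6.12 TPM in YN1 and 43.5, 105 and 60.3 TPM in CHIR. Lepr, the leptin receptor, had 0.458, 0.444 and 4.44 TPM in YN1 and 19.7, 24.0 and 34.9 TPM in CHIR. All 3 genes were low in DMEM too, where none of them passed 5.16 TPM. The LogFC was -4.95 for Mybpc1 (SE 0.52, adjusted p = 0.0672, and 0.0297 with the block), -4.16 for Emilin2 (SE 0.49, adjusted p = 0.0672, and 0.0314 with the block) and -3.55 for Lepr (SE 0.56, adjusted p = 0.125, and 0.0289 with the block).

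Bex1, a small protein of uncertain function studied in neurons, had 1.85, 4.12 and 5.22 TPM in YN1 and 24.3, 31.4 and 42.9 TPM in CHIR (LogFC -2.88, SE 0.36, adjusted p = 0.0734, and 0.0236 with the block). Pla2g7, which hydrolyses platelet-activating factor, had 7.10, 42.6 and 17.2 TPM in YN1 and 85.8, 149 and 122 TPM in CHIR (LogFC -2.65, SE 0.58, adjusted p = 0.185, and 0.0387 with the block). Dach2, a transcription cofactor of the network that includes Six2 and Eya1, had 0.118, 1.19 and 1.52 TPM in YN1 and 4.45, 14.2 and 15.3 TPM in CHIR (LogFC -2.59, SE 0.53, adjusted p = 0.172, and 0.0269 with the block). None of these 3 overlapped between groups. Stra6, the membrane receptor for retinol, had 5.19, 17.6 and 15.7 TPM in YN1 and 26.7, 67.1 and 73.1 TPM in CHIR, a difference that was even across pairs (LogFC -2.06, SE 0.54, adjusted p = 0.218, and 0.0236 with the block). It was the only one of 14 tested retinoid genes called, where 0.456% of all genes were called lower. Cyp26b1, which degrades retinoic acid, stood the other way without a call (LogFC 1.30, SE 0.29, adjusted p = 0.185, and 0.0628 with the block).

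Glycolytic genes, the pathway that YN1 targets at the enzyme level, mostly had a LogFC below 0. Of 25 tested, 18 had a LogFC below 0 (33.3% of all genes), 20 lay below the median of all genes, the list's median was -0.71 (-0.96 to -0.49 with any 1 library left out), and 4 were called with the block, all lower in YN1 (0.456% of all genes). Without the block 8 had an unadjusted p under 0.05 in that direction (3.21% of all genes). Pkm, pyruvate kinase, had 495, 391 and 637 TPM in YN1 and 794, 843 and 1181 TPM in CHIR. Aldoa, aldolase, had 386, 295 and 493 TPM in YN1 and 627, 512 and 888 TPM in CHIR. Both were separate between groups, with a LogFC of -0.89 for Pkm (SE 0.24, adjusted p = 0.218, and 0.0387 with the block) and -0.78 for Aldoa (SE 0.27, adjusted p = 0.267, and 0.0314 with the block). With median-ratio scaling and the block Pkm was not called (adjusted p = 0.0506).

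Pfkp, the platelet form of phosphofructokinase, had 38.9, 3.96 and 21.5 TPM in YN1 and 73.1, 14.8 and 62.4 TPM in CHIR, and Slc16a3, a lactate exporter, had 4.37, 8.65 and 40.7 TPM in YN1 and 16.1, 37.6 and 107 TPM in CHIR. Their groups overlapped, since replicates differed as much as compounds, and only the matched comparison called them (LogFC -1.36 for Pfkp and -1.68 for Slc16a3, adjusted p = 0.0480 and 0.0314 with the block, 0.490 and 0.418 without), and Pfkp was not called once either scaling was added (adjusted p = 0.0678 and 0.0521). Slc2a1, the glucose transporter Glut1, had 18.0, 14.5 and 33.4 TPM in YN1 and 43.1, 43.1 and 57.9 TPM in CHIR, separate but not called (LogFC -1.17, SE 0.32, adjusted p = 0.218, and 0.0530 with the block). Pfkfb3 itself, which encodes the target of YN1, had 16.5, 3.93 and 8.26 TPM in YN1 and 13.1, 12.95 and 12.6 TPM in CHIR. CHIR libraries were level and YN1 libraries spread around them, with a LogFC of -0.58 and a 95% interval of -1.64 to 0.48 without the block and -1.49 to 0.33 with it. DMEM levels lay near those of YN1 for Pkm (526, 409 and 639 TPM), Slc2a1 (17.8, 16.4 and 27.4 TPM) and Pfkfb3 (13.9, 5.23 and 7.74 TPM).

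None of 21 mevalonate and cholesterol genes, 21 TCA cycle genes or 12 genes of SREBP regulation and sterol transport was called in either fit. The median LogFC of the mevalonate list was -0.13, that of the TCA cycle list 0.02 and that of the SREBP list 0.18, beside 0.16 for all genes. Below the median of all genes lay 20 of the 21 mevalonate genes, 17 of the 21 TCA cycle genes and 6 of the 12 SREBP genes. Of the mevalonate genes 9 were lower in YN1 in all 3 pairs (15.4% of all genes). With median-ratio scaling the mevalonate median was -0.30, beside -0.008 for all genes. Among 12 genes of acetyl-CoA supply and fatty acid synthesis Fasn, fatty acid synthase, was called lower with the block (0.456% of all genes): it had 54.2, 80.2 and 134 TPM in YN1 and 113, 161 and 211 TPM in CHIR. Its groups overlapped while each pair was lower in YN1 (LogFC -0.90, SE 0.37, adjusted p = 0.315, 0.0416 with the block and 0.0583 with the block and quantile normalization). Of 30 targets of ATF4, the factor of the amino acid stress response, 29 were below 0 (33.3% of all genes), with a median of -0.62. Their summed level was 2381, 1055 and 1881 TPM in YN1, 2905, 1915.5 and 2661 TPM in CHIR, and 2117, 1116 and 1800 TPM in DMEM. With the block 20 had an unadjusted p under 0.05 in the lower direction (8.16% of all genes), and 2 were called, both lower in YN1 (0.456% of all genes). These were Stc2, a secreted glycoprotein (LogFC -1.81, SE 0.53, adjusted p = 0.234, 0.0433 with the block and 0.0559 with the block and quantile normalization), and Ddit4, an inhibitor of mTOR signaling (LogFC -1.17, SE 0.47, adjusted p = 0.313, and 0.0314 with the block). None of the 18 genes of ribosome biogenesis was called, with 14 below 0 (33.3% of all genes), a median of -0.53 and 7 at an unadjusted p under 0.05 in the lower direction without the block (3.21% of all genes). None of the 19 replication genes was called either, with 18 below 0 (33.3% of all genes) and a median of -0.35.

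**Figure D3:**
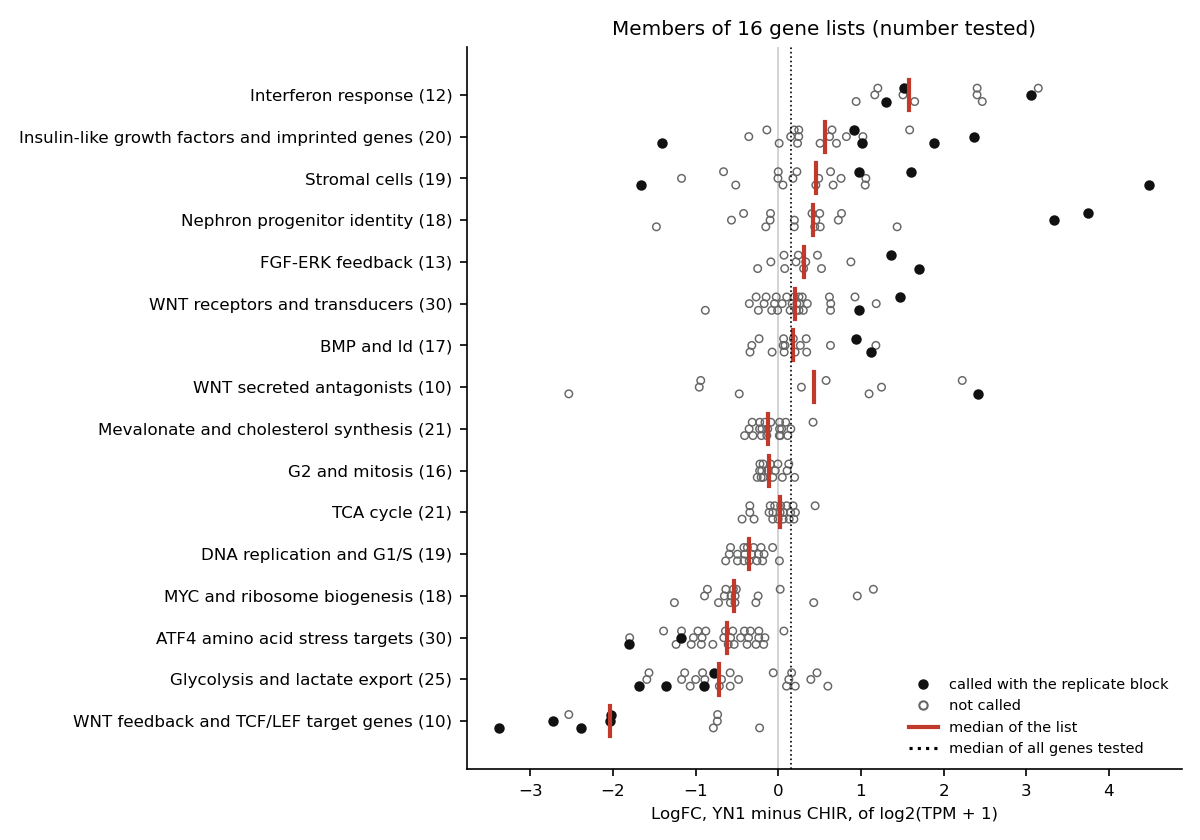
LogFC, YN1 minus CHIR, of the tested members of 16 gene lists, with the number tested in brackets, filled points for members called with the replicate block, a red line for the list's median and a dotted line for the median of all genes, 0.16. The WNT feedback and target list has a median of -2.03 and the interferon list one of 1.58.

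Of 14 interferon response genes 12 were tested, and 3 were called with the block, all higher in YN1 (1.11% of all genes). All 12 had a LogFC above 0 (66.7% of all genes) and were higher in all 3 pairs (41.3%), and 11 had libraries that did not overlap (18.3%). The median was 1.58, and 1.32 without YN1 replicate 1. None was called without the block, or once either scaling was added to the block. Irf7, a transcription factor that drives interferon genes, had 35.4, 6.61 and 7.93 TPM in YN1 and 0.963, 0.149 and 0.890 TPM in CHIR. YN1 replicate 1 was several times the other 2 YN1 libraries, and DMEM was between the groups at 5.95, 3.55 and 5.49 TPM (LogFC 3.06, SE 0.62, adjusted p = 0.172, and 0.0459 with the block). Irf9, which carries the interferon signal to the nucleus, had 48.9, 29.9 and 30.7 TPM in YN1 and 16.6, 11.3 and 14.1 TPM in CHIR. Its groups did not overlap, and the LogFC was 1.30 (SE 0.25, adjusted p = 0.165, and 0.0350 with the block).

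Of 20 growth factor and imprinted genes tested, 4 were called higher (1.11% of all genes) and 1 lower (0.456%) in YN1 with the block. Their median LogFC was 0.56, beside 0.16 for all genes. Igf2, the fetal insulin-like growth factor, had 636, 814 and 1114 TPM in YN1 and 415, 369 and 560.0 TPM in CHIR, and its imprinted neighbor H19, a noncoding RNA, had 2028, 2689 and 4052 TPM in YN1 and 1143, 1148 and 2036 TPM in CHIR. Igf2 was separate, H19 overlapped by a narrow margin, and both were called with the block (LogFC 0.92 and 1.02, adjusted p = 0.228 and 0.261 without it, 0.0456 and 0.0323 with it). Peg3 and Zim1, which lie in another imprinted cluster, had LogFC values of 1.89 and 2.37 (adjusted p = 0.140 and 0.163, and 0.0433 and 0.0269 with the block). Igfbp3, a binding protein that limits free insulin-like growth factors, was the exception, with 496, 53.5 and 354 TPM in YN1 and 1083, 173 and 955 TPM in CHIR. Replicate 2 was low in both groups, so the groups overlapped, and the LogFC was -1.41 (SE 1.01, adjusted p = 0.527, and 0.0289 with the block). With the block and quantile normalization 3 of the 20 kept a call, and 2 with the block and median-ratio scaling.

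Spry1 and Spry2, inhibitors of receptor tyrosine kinase signaling, were called higher in YN1 with the block, as were 1.11% of all genes. Spry1 had 243, 313 and 228 TPM in YN1 and 88.9, 121 and 92.0 TPM in CHIR, and Spry2 had 103, 139 and 84.4 TPM in YN1 and 38.5, 52.9 and 15.9 TPM in CHIR. Neither overlapped, and they were the 2 called of 13 tested FGF-ERK feedback genes (LogFC 1.37, SE 0.18, adjusted p = 0.107, and 0.0236 with the block for Spry1; LogFC 1.71, SE 0.43, adjusted p = 0.210, and 0.0428 with the block for Spry2). Spry2 was not called once either scaling was added (adjusted p = 0.0608 and 0.0547). Of 17 BMP genes, the ligand Bmp4 and the decoy receptor Bambi were called higher in YN1 with the block, again beside 1.11% of all genes (LogFC 0.94 and 1.12, adjusted p = 0.0433 and 0.0480, against 0.272 and 0.218 without it), and neither kept the call once a scaling was added. Notch2 was the 1 called of 10 Notch genes, also higher in YN1 (1.11% of all genes), at 48.9, 78.9 and 61.5 TPM in YN1 and 24.9, 39.9 and 25.1 TPM in CHIR (LogFC 1.06, SE 0.26, adjusted p = 0.205, 0.0365 with the block and 0.0535 with the block and quantile normalization).

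Of 18 cell cycle arrest and p53 target genes tested, 8 had a LogFC above 0 (66.7% of all genes) and 10 below 0 (33.3%). With the block 2 were called, Cdkn1a and Gadd45a (LogFC -1.38), both lower in YN1 (0.456% of all genes). Cdkn1a, the inhibitor p21, had 168, 10.3 and 95.5 TPM in YN1 and 340.1, 43.7 and 256 TPM in CHIR. Replicate 2 was low in both groups, so they overlapped, and each pair was lower in YN1 (LogFC -1.47, SE 1.16, adjusted p = 0.567, and 0.0444 with the block), and the call was lost once either scaling was added (adjusted p = 0.0681 and 0.0521). Cdkn1b, the inhibitor p27, stood the other way at 44.3, 49.97 and 44.1 TPM in YN1 and 27.6, 24.2 and 27.4 TPM in CHIR without a call (LogFC 0.78, SE 0.14, adjusted p = 0.1502, and 0.0549 with the block). The 16 mitotic genes had a median of -0.11 and no call in either fit.

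Of 19 tested stromal genes 4 were called with the block: Cxcl12, Meis2 and Ogn higher (1.11% of all genes) and Smoc2 lower (0.456%) in YN1, with a list median of 0.46, or 0.16 without YN1 replicate 1. Once a scaling was added to the block 2 of the 19 were called: Ogn was lost under both (adjusted p = 0.0678 and 0.0521), Smoc2 under quantile normalization (0.0523) and Meis2 under median-ratio scaling (0.0521). The summed level of the stromal list was 6525, 5848 and 7177.5 TPM in YN1, against 4390.4, 2208 and 4163 TPM in CHIR. Without Cxcl12 it was 4558, 2449 and 4469.8 TPM in YN1 and 4231, 2093 and 4078 TPM in CHIR, so Cxcl12 made up most of the gap, and none of its members was under 1 TPM in all 6 libraries. Emcn, a sialomucin best known from endothelium, had 117, 125 and 76.1 TPM in YN1 and 25.1, 31.8 and 13.9 TPM in CHIR (LogFC 2.17, SE 0.33, adjusted p = 0.121, and 0.0236 with the block). The defining endothelial markers Pecam1, Cdh5, Tek, Tie1 and Cldn5 were under 1 TPM in all 6 libraries, so that Emcn made up most of the list's sum of 78.4 to 126 TPM in YN1 and 17.1 to 32.3 TPM in CHIR. Of 10 blood and immune markers 7 were under 1 TPM, and the list summed to 6.36 to 9.07 TPM in YN1 and 7.32 to 8.38 TPM in CHIR. The part of stromal cells in the results above was not tested.

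The DMEM control, which entered neither group, lay beside YN1 for nearly all genes tested, and for a slightly smaller share of the called genes. Over the 223 genes called with the block, the difference from DMEM had a median size of 0.14 on the log2 scale in YN1 and of 1.45 in CHIR, and over all genes tested it was 0.09 in YN1 and 0.30 in CHIR. YN1 was within 0.6 of DMEM in 204 of the 223 genes (91.5%) and CHIR in 8 (3.59%), beside 96.5% and 78.4% of all genes tested. Since the 223 were called for a difference between YN1 and CHIR, the low count for CHIR follows in part from their choice. YN1 and CHIR are both set against the same DMEM libraries here, so these 2 distances are not independent. Of the 19 genes beyond 0.6, most carry the names of microRNAs, other small RNAs or predicted genes, and the others were Irf7 and Ddx58, an RNA sensor of the interferon response, which were higher in YN1 than in DMEM, and Gfra1 and Pla2g7, which were lower. Such names made up 28 of the 223 calls in all, and a small RNA inside a host gene cannot be told apart from its host in these values.

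**Figure D4:**
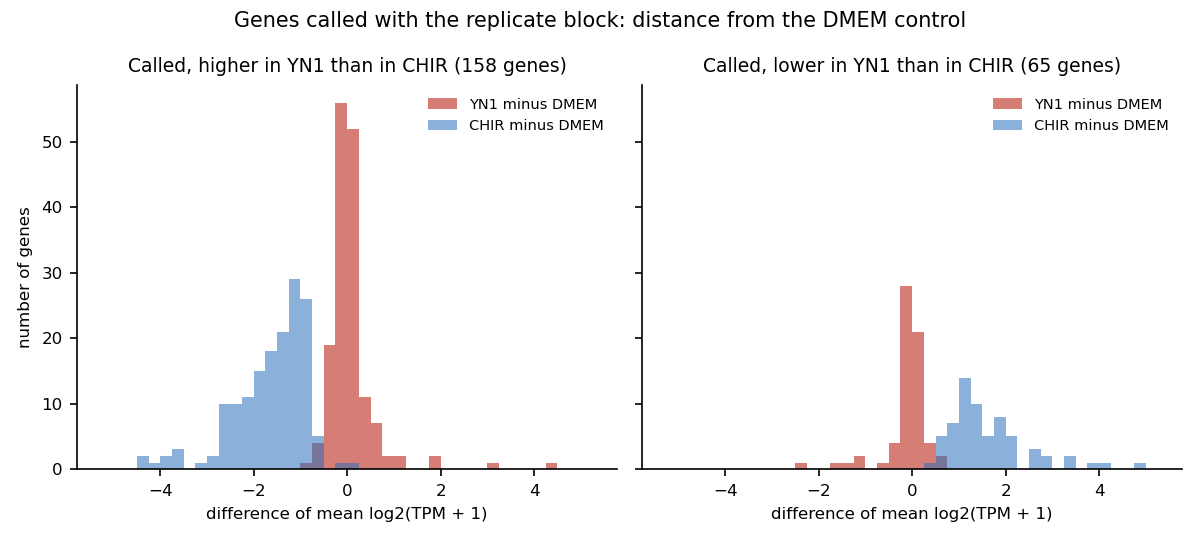
Number of genes by the difference of mean log2(TPM + 1) between YN1 or CHIR and the DMEM control, for the 158 genes called higher and the 65 called lower in YN1 than in CHIR with the replicate block. The YN1 differences center near 0, with medians of -0.01 and -0.05, and those of CHIR have medians of -1.47 and 1.396.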

How the data were processed

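Poly-A RNA of mouse NPCs was sequenced as paired reads, whose length the labels and the methods give differently, with a kit that does not keep strand. The tools named for the deposited tables are FastQC, STAR, RSEM and Kallisto, with the builds mm9 and mm10; versions and the annotation release are not given in the sources used here. The authors deposited TPM per gene and library, in 3 tables whose shared NPEM columns are identical, and every per-sample column was matched to a title. Columns and files with the authors' own fold changes and p-values were not used. TPM keep no read depth, so no counting error can be given.

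Genes that reached 1 TPM in 3 or more of the 6 libraries (14269 of 54184) were fitted on log2(TPM + 1), YN1 minus CHIR, with limma 3.58.1 in R 4.3.3 (lmFit and eBayes with a trend, two-sided). P-values were adjusted by Benjamini-Hochberg over all genes tested. The study's methods state no replicate block, so the fit without one came first. The shared replicate numbers were then checked: deviations from the group means correlated at 0.638, 0.516 and 0.462 between same-numbered libraries and at -0.426 to -0.0845 between differently numbered ones. Deviations cancel within each group for every gene, so positive same-numbered values push the others below them. The negative values therefore add no separate support. All same-numbered values exceeded 0.1, so the numbers were taken to pair the libraries, and the blocked values are given beside the others. The methods describe 3 independent NPC preparations; p-values measure the spread between these libraries as labelled.

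Named genes were those past the adjusted p without library overlap, up to 12 in each direction by LogFC, then those with the smallest unadjusted p, up to 4 members of each of 35 gene lists, and key genes of WNT signaling, NPC identity and glycolysis. Called list members outside this rule, Krt8, Ddx58, Fzd1, Lgr5 and Rnf43 were named after their values were seen. The members and lists were chosen with earlier results of these data known. Lists are described by counts and medians only. The alternatives were the block, other scalings, filters and pseudocount, a fit of all 12 libraries, a fit without trend and leaving out each library; the fit was tested on simulated data. A result for a withheld item is not reported here.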

Additional observations from a re-analysis of the deposited data

How the results depend on the processing

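The number of genes called, 1 without the replicate block, was 223 with the block that the pairing of the numbers supports. It was 2 after quantile normalization, 2 after median-ratio scaling, 0 of 32170 genes without a filter on low values (limma, with 2927 at an unadjusted p under 0.05), 5 without trend, 242 with all 12 libraries in one fit and 3002 with all 12 and a block. Leaving out 1 library gave 0 to 2. With the block, leaving out replicate 1, 2 or 3 gave 101, 210 and 90, of which 55 to 143 were among the 223. At the study's thresholds 1534 genes became 2303 with the block, 986 to 2118 with 1 library left out and 1844 to 2918 with 1 replicate number left out under the block. Alternatives chosen after seeing the data gave 110 calls for quantile normalization with the block, 158 for median-ratio scaling with the block, 2 with ribosomal protein genes and Mir6236 left out and 202 with these left out and the block. The causes were not tested.

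All 223 genes called with the block kept their sign under every alternative that tested them (206 were tested at a minimum mean of 5 TPM). They were chosen from the same libraries for differences that agree across pairs, so this follows largely from their choice. Of the 72 genes followed here through all alternatives, 4 that were not called turned sign. With 1 library left out, Six2 ranged from -0.054 (without CHIR replicate 1) to 1.13, Krt8 from -1.52 (without YN1 replicate 3) to 2.03, Gdnf from -0.67 to 0.64 (without CHIR replicate 2) and Pax8 from -0.83 to 0.71 (without YN1 replicate 1). Under the block, Gdnf was at 0.062 without replicate 2 and Pax8 at 0.058 without replicate 1. The cause was not tested.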
